A study of Mus musculus with 6 samples.

Results

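Expression of 9 genes of megakaryocytes and platelets was followed in the trunk of the mouse embryo. The genes were Itga2b, Gp1ba, Gp1bb, Gp9, Gp6, Clec1b, Pf4, Ppbp and Treml1. They were chosen on the measured difference between Arid3b-null and wild type in these arrays, because platelet genes were higher where erythroid genes were lower, so that difference is a description here and carries no test. The array reads them with 13 of its 39429 probes that are not controls, and all 9 were among the 19794 genes tested. RNA was taken at embryonic day 9.5 from a piece of trunk that reached from the otic vesicle down to somite 15 and held the forelimbs. There were 3 wild-type and 3 Arid3b-null samples, each RNA of 4 pooled embryos, on 1-colour Agilent arrays. Arid3b is a DNA-binding protein of the ARID family. The null embryos are taken from their label to lack it, and the protein was not measured here. The sources used here do not say how the allele was made, which strain and sex the embryos were, or whether pools shared litters, so p-values measure only the spread between these pools.

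Megakaryocytes are large blood cells that shed platelets, and at this age they arise in the yolk sac along with primitive red cells and reach the body by the circulation. Integrin αIIb pairs with integrin β3 to bind fibrinogen, the glycoprotein Ib-IX-V complex binds von Willebrand factor, glycoprotein VI binds collagen and CLEC-2 binds podoplanin, while platelet factor 4 and pro-platelet basic protein are chemokines packed into α granules. Many of these genes are known targets of GATA and ETS family transcription factors. In a mixed tissue such as the trunk, more megakaryocytes and more RNA per megakaryocyte cannot be told apart.

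Values are given as the log2 level, the log2 signal with the array's 75th percentile set to 0. Each difference subtracts wild type from Arid3b-null. Every SE given is limma's, which moderates a gene's spread with that of all genes tested. It can thus be smaller or larger than the printed SDs imply. The 75th percentile lay between 611 and 844 signal units, and 60.7% to 68.1% of probes carried the scanner software's mark for a signal well above background. The brightest Arid3b probe read 2.24 ± 0.31 in the wild-type and 0.55 ± 0.10 in the Arid3b-null arrays (SD, n = 3 each), 31.0% of the wild-type signal, in the direction of the labels. The other tested Arid3b probes differed by -1.90 and -3.23, and where the probes lie relative to the altered part of the gene is not known. Each of 3 slides held both arrays of 1 replicate number, wild type always at position 1 and Arid3b-null at position 2, so slide position and genotype cannot be told apart. All 16 markers of trunk and forelimb were well above background on the 6 arrays. Of 10 markers of parts outside the piece 6 were too dim to test, and 3 of the 4 tested were well above background on all arrays. The median deviation of these 4 from their group means was 0.34 in Arid3b-null replicate 1 and -0.51 in Arid3b-null replicate 3. Of the 16 trunk markers 3 fell (18.8%, against 12.9% of all genes tested). These were Pax1 of the sclerotome (3.86-fold, limma adjusted p = 0.000464), Olig2 of motor neuron progenitors (1.66-fold, 0.00763) and Meox2 of the somites (1.46-fold, 0.0256). The call of Meox2 was lost with 4 of the 6 arrays left out in turn (0.0661 to 0.0921). Lhx2, listed as a gene of parts outside the piece and also made in the limb bud, fell 1.38-fold (limma adjusted p = 0.0460), a call lost with any 1 array left out (0.0593 to 0.140).

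The promoter windows of all 9 genes were searched, and 5 are printed here. The printed 5 were not picked by a rule, and each holds a word marked in capitals. Each window holds 250 bases before and 50 after the annotated start, from RefSeq on build GRCm38.p6, and all 9 genes matched. Capitals mark AGATAA or TGATAA, words that GATA factors can bind, and AGGAAG, a word that ETS factors can bind, searched on both strands. No marked words overlap.
Itga2b, chr11:102469834-102470133, minus strand: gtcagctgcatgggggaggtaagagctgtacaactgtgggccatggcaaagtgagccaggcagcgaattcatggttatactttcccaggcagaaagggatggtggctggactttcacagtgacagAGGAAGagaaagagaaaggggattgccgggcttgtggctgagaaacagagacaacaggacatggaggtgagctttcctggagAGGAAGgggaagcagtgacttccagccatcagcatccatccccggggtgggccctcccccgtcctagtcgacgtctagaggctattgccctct
Gp1ba, chr11:70638872-70639171, plus strand: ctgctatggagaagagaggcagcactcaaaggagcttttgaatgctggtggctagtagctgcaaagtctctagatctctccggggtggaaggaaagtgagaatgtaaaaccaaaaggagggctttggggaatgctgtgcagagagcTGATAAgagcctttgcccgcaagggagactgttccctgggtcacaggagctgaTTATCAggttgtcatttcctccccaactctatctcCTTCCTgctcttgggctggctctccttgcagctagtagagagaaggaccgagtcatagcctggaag
Pf4, chr5:90772185-90772484, plus strand: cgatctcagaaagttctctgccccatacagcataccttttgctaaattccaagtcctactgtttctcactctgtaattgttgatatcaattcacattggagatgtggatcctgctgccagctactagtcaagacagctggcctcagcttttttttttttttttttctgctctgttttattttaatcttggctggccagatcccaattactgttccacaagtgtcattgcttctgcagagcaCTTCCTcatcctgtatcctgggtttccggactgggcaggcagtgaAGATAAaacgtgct
Gp9, chr6:87777820-87778119, plus strand: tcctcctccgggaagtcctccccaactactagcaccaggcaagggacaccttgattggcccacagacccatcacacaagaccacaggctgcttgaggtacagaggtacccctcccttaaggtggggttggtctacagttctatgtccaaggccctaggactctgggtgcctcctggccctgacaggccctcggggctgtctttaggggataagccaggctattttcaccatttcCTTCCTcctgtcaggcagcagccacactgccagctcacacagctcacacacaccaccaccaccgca
Clec1b, chr6:129397047-129397346, plus strand: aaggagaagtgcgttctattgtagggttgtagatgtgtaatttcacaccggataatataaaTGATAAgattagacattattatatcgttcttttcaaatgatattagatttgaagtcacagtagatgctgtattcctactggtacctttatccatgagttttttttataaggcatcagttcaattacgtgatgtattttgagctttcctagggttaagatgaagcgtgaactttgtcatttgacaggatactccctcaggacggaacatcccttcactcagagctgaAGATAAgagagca

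A GATA word stood in 4 of the 9 windows and in 18.6% of all 32851 promoter windows. An ETS word stood in 5 of the 9 and in 35.4% of all windows, and both words in 2 of the 9, Pf4 and Gp1ba, and in 6.65% of all. Itga2b carried ETS words 125 and 43 bases before the start. Gp1ba carried GATA words 104 and 51 bases before the start and an ETS word 16 bases before it, the distance also found for the ETS word of Gp9. Pf4 had an ETS word 9 bases before the start and a GATA word at base 37 of the transcript. Gp6 had 1 GATA word and Gp1bb 1 ETS word, and in Ppbp and Treml1 these letters are not in the window. Clec1b, whose level was close in both groups, had 2 GATA words. A match of letters is a description and not a binding site.

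**Figure D1:**
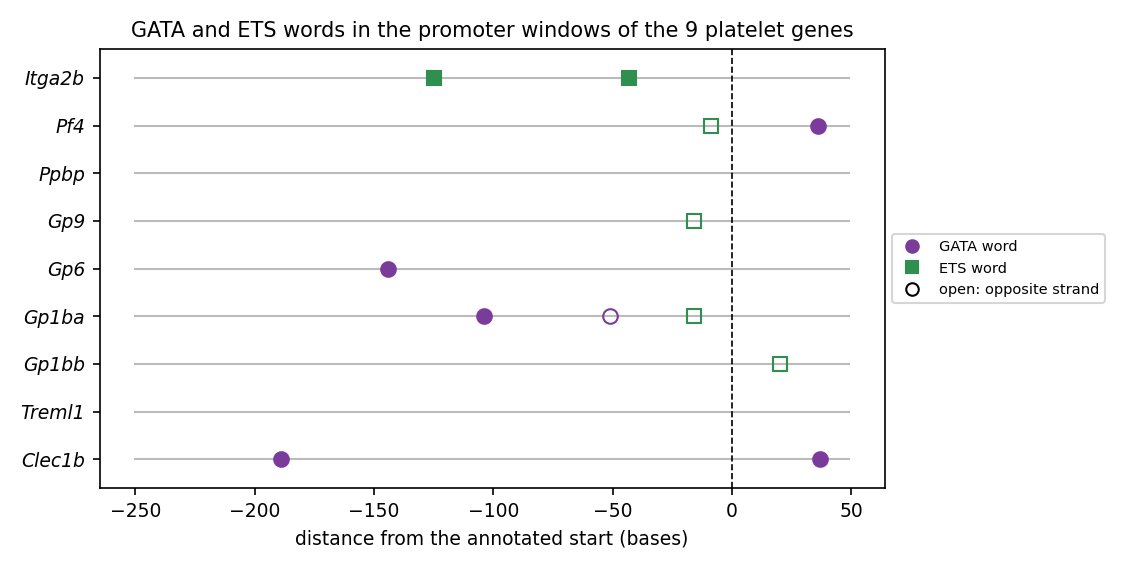
Positions of GATA words (AGATAA or TGATAA, purple circles) and ETS words (AGGAAG, green squares) in each gene's promoter window, in bases from the annotated start (dashed line); open symbols lie on the opposite strand. The ETS words of Pf4, Gp9 and Gp1ba lie 9, 16 and 16 bases before the start, and Ppbp and Treml1 have no word.

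Itga2b encodes integrin αIIb (CD41), a marker of the megakaryocyte lineage and of early blood progenitors, and had the largest difference of the 9. Its log2 levels were -4.31, -4.47 and -4.83 in wild type and -3.27, -2.65 and -2.80 in Arid3b-null. Every Arid3b-null array lay above every wild-type array. The group means were -4.54 ± 0.26 and -2.91 ± 0.32 (SD, n = 3 each), a difference of 1.63 ± 0.21 (SE) or 3.09-fold, and of 1.04, 1.82 and 2.03 within the slides. The probe is dim, at 21.5 to 98.3 signal units. Under normexp, a background model that draws dim signals together, with 1 background value per array, the fold was 1.77. The corresponding value is called the normexp fold below. Every normexp setting also added an offset of 50 signal units, which by itself makes the folds of dim probes smaller. The share of the offset in these smaller folds and lost calls was not separated.

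Itgb3, the β3 partner that αIIb needs to reach the cell surface and that other cells also make, is not one of the 9. Its level was -0.64 ± 0.24 in wild type against 0.15 ± 0.19 in Arid3b-null (SD, n = 3 each). It rose 1.73-fold, a log2 difference of 0.79 (limma adjusted p = 0.0148), and its second tested probe had a larger log2 difference of 1.77. It no longer passed with wild type replicate 1 left out (adjusted p = 0.0568) and with no filter on dim probes (0.0603).

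Genes of the glycoprotein Ib-IX-V complex, which tethers platelets in flowing blood, differed by unequal amounts. Gp1ba, whose product carries the binding site for von Willebrand factor, read -4.97, -4.83 and -4.36 in wild type and -3.92, -3.18 and -3.47 in Arid3b-null. The groups did not overlap, with a difference of 1.20 ± 0.24 (SE) or 2.30-fold, and of 1.05, 1.66 and 0.89 within the slides. Gp9, whose product stabilises the complex, read -2.87, -3.28 and -2.81 in wild type and -2.29, -1.93 and -2.23 in Arid3b-null. Again the Arid3b-null arrays were all higher, by 0.83 ± 0.17 (SE) or 1.78-fold, and by 0.58, 1.34 and 0.57 within the slides. The normexp folds of Gp1ba and Gp9 were 1.41 and 1.46.

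Gp1bb encodes the chain that is disulphide-linked to the Gp1ba product. It read -4.42, -4.81 and -4.97 in wild type and -4.53, -4.13 and -4.55 in Arid3b-null. The groups overlapped, with wild type replicate 1 above 2 of the 3 Arid3b-null arrays, and the difference was 0.33 ± 0.19 (SE) or 1.26-fold, and -0.11, 0.68 and 0.41 within the slides. This probe stood at 19.5 to 39.3 signal units, and the gene's other probes, at 1.23 to 4.69 and 1.97 to 10.8 units, were not well above background on any array. Septin5 adjoins Gp1bb and its transcripts are known to run into it. Septin5 differed by 0.17 ± 0.18 (SE) and did not pass (limma adjusted p = 0.533), and its share in the Gp1bb signal was not tested. Gp5, a further chain of the complex and not one of the 9, rose 2.12-fold (limma adjusted p = 0.00528). Its probe had the mark for well above background in 2 of 3 wild-type samples, and the normexp fit with 1 background per array ended the call (adjusted p = 0.0720).

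Gp6 and Clec1b encode activating receptors that signal through the kinase Syk. Gp6, the collagen receptor, read -5.67, -5.86 and -5.37 in wild type and -4.51, -4.32 and -4.06 in Arid3b-null. All Arid3b-null arrays were above all wild-type arrays, by 1.34 ± 0.17 (SE) or 2.54-fold, and by 1.17, 1.55 and 1.31 within the slides. Its signal was only 10.5 to 40.1 units, and the normexp fold was 1.34. Fcer1g, the Fc receptor γ chain through which Gp6 signals, differed by -0.07 ± 0.14 (SE) and did not pass (limma adjusted p = 0.734).

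Clec1b encodes CLEC-2, which meets podoplanin and keeps blood and lymph vessels apart. It read -0.34, -0.56 and -0.50 in wild type and -0.53, -0.33 and -0.44 in Arid3b-null. The groups overlapped, with a difference of 0.03 ± 0.11 (SE), and its other probes differed by -0.0027 and -0.00037. All 3 probes were well above background on the 6 arrays, this one at 416 to 666 signal units. Pdpn, the gene of podoplanin, differed by -0.35 and did not pass (limma adjusted p = 0.279).

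Pf4 and Ppbp encode α granule chemokines and belong to 1 chemokine gene cluster. Pf4 read 0.92, 0.51 and 1.09 in wild type and 2.32, 2.39 and 2.01 in Arid3b-null. The groups lay apart, with a difference of 1.40 ± 0.19 (SE) or 2.64-fold, and of 1.40, 1.88 and 0.92 within the slides. Its signal was 870 to 1596 units in wild type and 2695 to 3231 units in Arid3b-null, and the normexp fold was 2.58. Some macrophages also make Pf4. Ppbp read -3.49, -4.40 and -3.74 in wild type and -2.46, -2.06 and -2.72 in Arid3b-null. Its groups did not overlap either, and the difference of 1.47 ± 0.27 (SE) or 2.76-fold was 1.04, 2.34 and 1.02 within the slides. Wild type replicate 2 was the lowest array, and the normexp fold was 1.72. Of the neighbouring chemokine genes listed, Cxcl5 alone was bright enough to test, and it did not pass (difference 0.42, limma adjusted p = 0.204).

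Treml1 encodes TLT-1, a receptor stored in α granules that reaches the platelet surface on activation. It read -1.72, -2.06 and -1.88 in wild type and -0.67, -0.72 and -1.01 in Arid3b-null. The groups were separate, and the difference of 1.09 ± 0.14 (SE) or 2.13-fold was 1.05, 1.34 and 0.87 within the slides. The normexp fold was 1.96. Its relatives Trem1 and Treml4 differed by 0.26 and 0.50 and did not pass (limma adjusted p = 0.327 and 0.517).

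**Figure D2:**
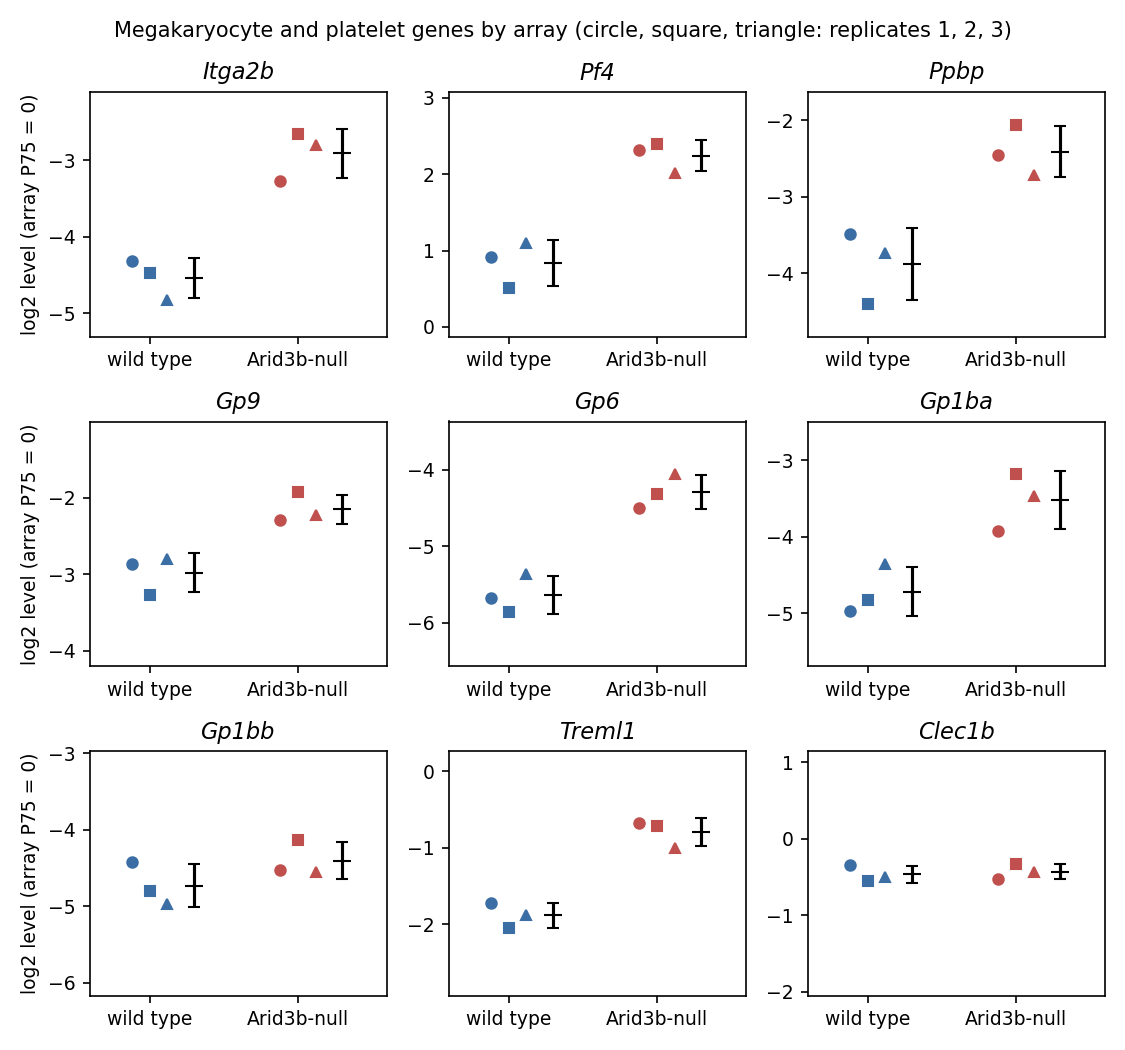
Log2 level (array 75th percentile at 0) of each gene on each array, wild type in blue and Arid3b-null in red, with mean ± SD (n = 3) in black; every panel spans 3.2 log2 units. In 7 panels the red points all lie above the blue ones, and in Gp1bb and Clec1b they overlap.

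Counted over the 9 genes, 7 had all Arid3b-null arrays above all wild-type arrays. Over all tested genes the groups were separate in 46.2%, with Arid3b-null above in 23.0% and below in 23.2%. The limma test called 7 of the 9 higher, and over all genes it called 26.6%, of which 13.6% higher and 12.9% lower as shares of the genes tested. These values chose the genes, so nothing is read from the counts. The median difference was 1.20 for the 9 and -0.04 for all genes. Summed over the 9 on a linear scale, the level was 2.62 to 3.47 times the array's 75th percentile in wild type and 5.97 to 7.52 times in Arid3b-null. Pf4, the brightest of the 9 at 870 to 3231 signal units, made up most of this sum on every array. The sum therefore mainly follows Pf4.

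Arrays of 1 group also differed from each other in these genes. Wild type replicate 2 was the lowest wild-type array for 6 of the 9, with 8 of 9 below their group mean and a median deviation of -0.17. Arid3b-null replicate 2 was the highest Arid3b-null array for 7 of the 9, with 8 of 9 above the group mean and a median deviation of 0.22. Both arrays lie on slide 2. Ppbp spread most in wild type, with deviations from -0.52 to 0.38, and Clec1b least. The median SD of the 9 was 0.26 in wild type and 0.22 in Arid3b-null, against 0.16 and 0.17 over all genes. In wild type replicate 2, 13 of 14 macrophage and myeloid genes were below their group mean, and in Arid3b-null replicate 2, 24 of 29 erythroid genes were above it. Their part in the levels of the 9 genes was not tested.

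**Figure D3:**
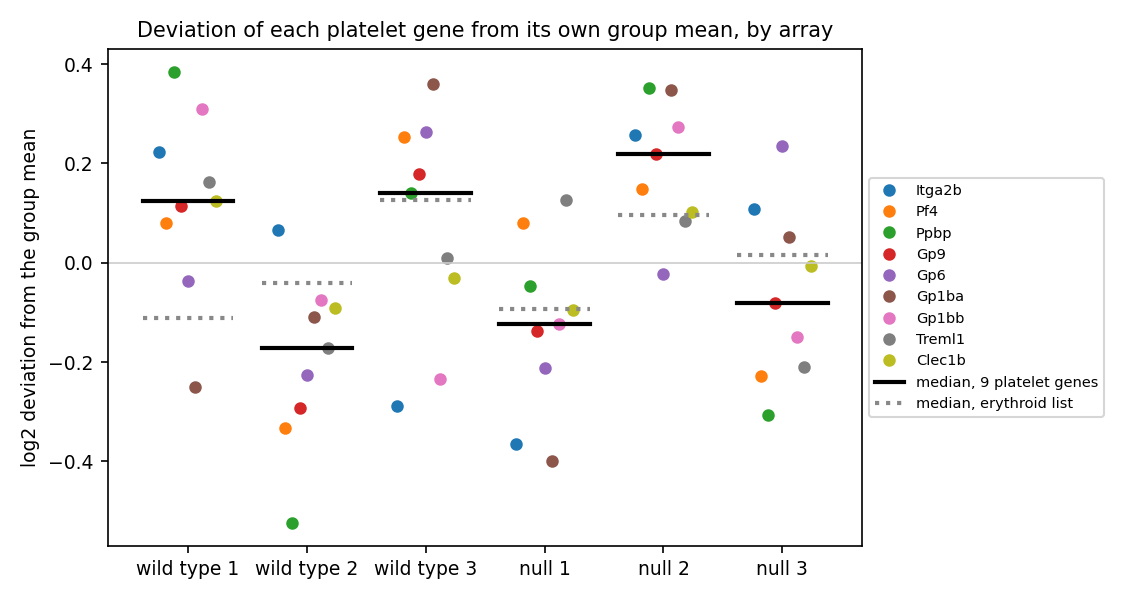
Deviation of each gene from the mean of its own group, by array, in log2 units; black lines give the median of the 9 genes and dotted grey lines that of the erythroid list. The medians of the 9 genes are -0.17 in wild type replicate 2 and 0.22 in Arid3b-null replicate 2.

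Further genes of megakaryocytes and platelets were taken from 6 lists by function, none of which holds one of the 9. Of 107 tested, 30 (28.0%) were higher and 9 (8.41%) lower in Arid3b-null, against 13.6% and 12.9% of all genes, and 68 did not pass. Their median difference was 0.22. Many of these genes are also made by other cells of the trunk. All lists were chosen with earlier results of these data known, so their counts are a description and no independent support. The higher count was 16 without wild type replicate 1, 19 without Arid3b-null replicate 1 and 18 without Arid3b-null replicate 2. The lower count was 4 without wild type replicate 1 and 5 when wild type replicate 2, wild type replicate 3 or Arid3b-null replicate 3 was left out.

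Among receptors for adhesion and platelet agonists, 8 of 20 rose (40%, all genes 13.6%) and the other 12 did not pass, with a median of 0.34. Beside Gp5 and Itgb3 these were led by Tbxa2r, the thromboxane receptor, at 1.81-fold (limma adjusted p = 0.00447), and F11r, a junction protein also made by epithelia, at 1.72-fold (0.0125, and 0.0539 with no filter on dim probes). The count was 3 without wild type replicate 1, 4 without Arid3b-null replicate 2, and 5 when wild type replicate 3 or Arid3b-null replicate 1 was left out. It was 5 with arrays scaled to their median and 2 of 29 with no filter on dim probes.

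Granule genes rose in 9 of 21 (42.9%, all genes 13.6%) and fell in 1 (4.76%, all genes 12.9%), with a median of 0.42. Pdgfb, a growth factor that endothelium also makes, rose 2.10-fold (limma adjusted p = 0.00223) and Hps1, which serves lysosome-related organelles, 1.97-fold (0.00914). Stxbp2, a protein of granule release, rose 1.88-fold (0.00293), but its second probe differed by -0.32 and the mean of the probes did not pass (0.133). Vwf, stored in α granules and also made by endothelium, read 0.63 ± 0.17 in wild type against 0.64 ± 0.62 in Arid3b-null (SD, n = 3 each) and did not pass (limma adjusted p = 0.984). The higher count was 4 without wild type replicate 1 and 5 with Arid3b-null replicate 1 or 2 left out, and 4 of 23 with no filter on dim probes. The gene that fell was Mmrn1 (difference -0.56), and its call was lost when Arid3b-null replicate 2 or 3, or else wild type replicate 1 or 3, was left out (0.0518 to 0.0620) and with no filter on dim probes (0.0765).

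In the signalling list 7 of 22 rose (31.8%, all genes 13.6%) and 3 fell (13.6%, all genes 12.9%), with a median of 0.29. Fermt3 (kindlin-3, which activates integrins in blood cells) rose 2.32-fold (limma adjusted p = 0.00953; normexp 1.52-fold), Plek (pleckstrin, a kinase C substrate of platelets) 2.22-fold (0.00625), Ptpn6, a phosphatase of blood cells, 1.98-fold (0.00313) and Rasgrp2, which turns on Rap1 in platelets, 1.75-fold (0.00706). The genes that fell were Apbb1ip, Syk and Inpp5d, with differences of -1.13, -0.39 and -0.33. The calls of Syk and Inpp5d were lost with the slide as a block (limma adjusted p = 0.0539 and 0.0836), with any 1 array left out, with median scaling and with no filter on dim probes. Under normexp all 3 were lost, Apbb1ip with a difference of -0.07 (0.776). The higher count was 4 with wild type replicate 1 or Arid3b-null replicate 3 left out and 4 of 25 with no filter on dim probes.

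Cytoskeletal genes rose in 2 of 16 (12.5%, all genes 13.6%) and fell in 1 (6.25%, all genes 12.9%), with a median of 0.02. Stom, a membrane scaffold, rose 1.74-fold (limma adjusted p = 0.0101), but the mean of its probes did not pass (0.163). Flna, an actin crosslinker of most cells, rose 1.29-fold (0.0433), and the call was lost with any 1 array left out (0.0664 to 0.140). Diaph1, a formin, fell 1.56-fold (0.0296), and the call was lost with any wild-type array left out (0.0680 to 0.0841) and under normexp (0.199). Tubb1, the β1 tubulin of the platelet's marginal band, differed by -0.32 ± 0.34 (SE) and did not pass (limma adjusted p = 0.522).

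Transcription factors of the lineage went both ways, with a median of 0.07. Of 19 tested, 2 were higher (10.5%, all genes 13.6%) and 4 lower (21.1%, all genes 12.9%). Gata1, needed for red cells and megakaryocytes alike, read -0.26, -0.11 and -0.10 in wild type and -1.08, -0.84 and -0.99 in Arid3b-null. Its groups did not overlap, and it fell 1.76-fold (limma adjusted p = 0.00418). Tal1 and Lyl1, early blood factors also made in endothelium, fell 1.62-fold (0.0135) and 1.59-fold (0.0122), and Mafk, a partner of Nfe2, rose 1.52-fold (0.0113). With no filter on dim probes these 3 did not pass (0.0590, 0.0554 and 0.0552). Fli1, the ETS factor of megakaryocytes, differed by -0.32 (limma adjusted p = 0.103), Nfe2, which drives platelet release, by -0.35 (0.0749) and Runx1 by 0.43 (0.0695), and these did not pass. Runx1 passed as higher without Arid3b-null replicate 3 (0.0472) and with the mean of its probes (0.0153). The higher count of the list was 1 with Arid3b-null replicate 1 or 2, or else wild type replicate 1 or 3, left out and with median scaling. With no filter on dim probes the higher count was 0 and the lower count 1. Larger higher counts were 3 under quantile normalization and 4 with the mean of the probes of a gene. Under normexp with 1 background per array and quantile normalization, 4 were higher and 5 lower.

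Of 9 genes of thrombopoietin and cytokine signalling, 2 rose (22.2%, all genes 13.6%) and 7 did not pass. Kit, the stem cell factor receptor, which neural crest cells also make, rose 2.18-fold (limma adjusted p = 0.00254), and Stat5b 1.90-fold (0.0118).

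Of 9 tested ligands and receptors that the proteins of the 9 genes meet, 3 fell (33.3%, all genes 12.9%) and 1 rose (11.1%, all genes 13.6%). Fgg, the fibrinogen γ chain, fell 4.52-fold (limma adjusted p = 0.0103; normexp 2.12-fold), and Vtn, vitronectin, 2.31-fold (0.00304). Fga, the fibrinogen α chain, fell 2.18-fold (0.0388) and was well above background in 2 of 3 Arid3b-null samples. Its call was lost under normexp (1.12-fold lower, 0.365), with no filter on dim probes (0.113) and with the slide as a block (0.0573). It was also lost with wild type replicate 1 or 3 (0.106 and 0.104) or Arid3b-null replicate 2 or 3 left out (0.0818 and 0.0718). Fn1, fibronectin, rose 1.51-fold (0.0283), and the call was lost with any array but Arid3b-null replicate 1 left out (0.0537 to 0.0964).

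The lower level of erythroid genes was part of how the 9 were chosen, so nothing is read from their counts. By limma 9 of 29 erythroid genes were lower (31.0%, all genes 12.9%), 1 was higher (3.45%, all genes 13.6%) and 19 did not pass. Their median difference was -0.34. Their summed level was 1028 to 1369 times the array's 75th percentile in wild type and 835 to 1042 times in Arid3b-null, ranges that overlap. Klf1, the erythroid master factor, was 2.74-fold, the haemoglobin regulator Bpgm 2.13-fold and Cited4 2.33-fold lower. The wild-type log2 levels of Klf1, Bpgm and Cited4 were -0.48, 1.15 and 2.05, so these genes add little to the summed level. The embryonic globin genes Hba-x and Hbb-bh1 differed by -0.30 and -0.36 and did not pass. The higher gene was Sptb, a spectrin that was well above background in 1 of 3 wild-type samples and 3.03-fold higher, or 1.27-fold under normexp. The lower count was 4 with wild type replicate 2 or Arid3b-null replicate 1 left out, 5 without wild type replicate 3 and 3 with no filter on dim probes.

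Of 20 macrophage and myeloid genes 14 were tested, 9 of them well above background on all 6 arrays, with a median of -0.59. Of these 4 fell (28.6%, all genes 12.9%) and 2 rose (14.3%, all genes 13.6%). Cx3cr1, a chemokine receptor of macrophages, fell 7.76-fold (limma adjusted p = 0.00390) but 1.47-fold under normexp, and was well above background in 1 of 3 Arid3b-null samples. Mpo fell 2.53-fold (0.00463; normexp 1.49-fold) and Coro1a 2.12-fold (0.00316). Tyrobp, an adaptor of myeloid receptors, fell 3.46-fold (0.00802) but 1.31-fold under normexp, where it did not pass (0.0828). It was well above background in 2 of 3 Arid3b-null samples. The summed level was 2.88 to 4.18 in wild type and 1.88 to 2.92 in Arid3b-null, ranges that overlap. The lower count was 7 without Arid3b-null replicate 1. The genes that rose, Prtn3 and Aif1 (differences 0.51 and 0.59), both lost their call with the slide as a block (limma adjusted p = 0.0820 and 0.0629), under normexp (0.144 and 0.101), with no filter on dim probes and with any 1 array left out, except Prtn3 without Arid3b-null replicate 1.

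Early blood progenitor genes fell in 3 (27.3%, all genes 12.9%) and rose in 2 (18.2%, all genes 13.6%) of 11. Their summed level was 17.99 to 24.1 in wild type and 20.4 to 22.5 in Arid3b-null. Myb, which definitive progenitors need, fell 3.78-fold (limma adjusted p = 0.000362; normexp 2.39-fold), and Mycn, also a gene of limb and neural tube, rose 1.81-fold (0.00438). Ikzf1 fell 1.94-fold (0.0168) and was well above background in 2 of 3 Arid3b-null samples. Its call was lost with wild type replicate 1 or 2 left out (0.0518 and 0.0526) and under normexp (0.509). Hlf rose 1.59-fold (0.0329), a call lost with any array but wild type replicate 2 left out (0.0613 to 0.0871). The lower count was 1 with wild type replicate 1 or 2 left out, with no filter on dim probes and under normexp.

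Endothelial genes rose in 6 (25%, all genes 13.6%) and fell in 2 (8.33%, all genes 12.9%) of 24, with a median of 0.25. Their summed level was 61.9 to 64.7 in wild type and 63.4 to 70.8 in Arid3b-null. Sox17 and Sox7, SoxF factors of vessels, rose 2.31-fold (limma adjusted p = 0.00136) and 1.79-fold (0.00474), and Gja4, an arterial connexin, fell 1.84-fold (0.00334). Robo4 rose 1.52-fold (0.0261), a call lost with any array but Arid3b-null replicate 3 left out (0.0586 to 0.0702). Pecam1 and Cdh5, made by endothelium at large, differed by 0.23 and -0.09 and did not pass (limma adjusted p = 0.308 and 0.661). The higher count was 2 with Arid3b-null replicate 2, or else wild type replicate 1 or 3, left out and with no filter on dim probes, and 3 without Arid3b-null replicate 1 and with median scaling. The lower count was 1 with any array but wild type replicate 3 left out, with median scaling, with no filter on dim probes and with the slide as a block. The part of these other cell types in the levels of the 9 genes was not tested.

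**Figure D4:**
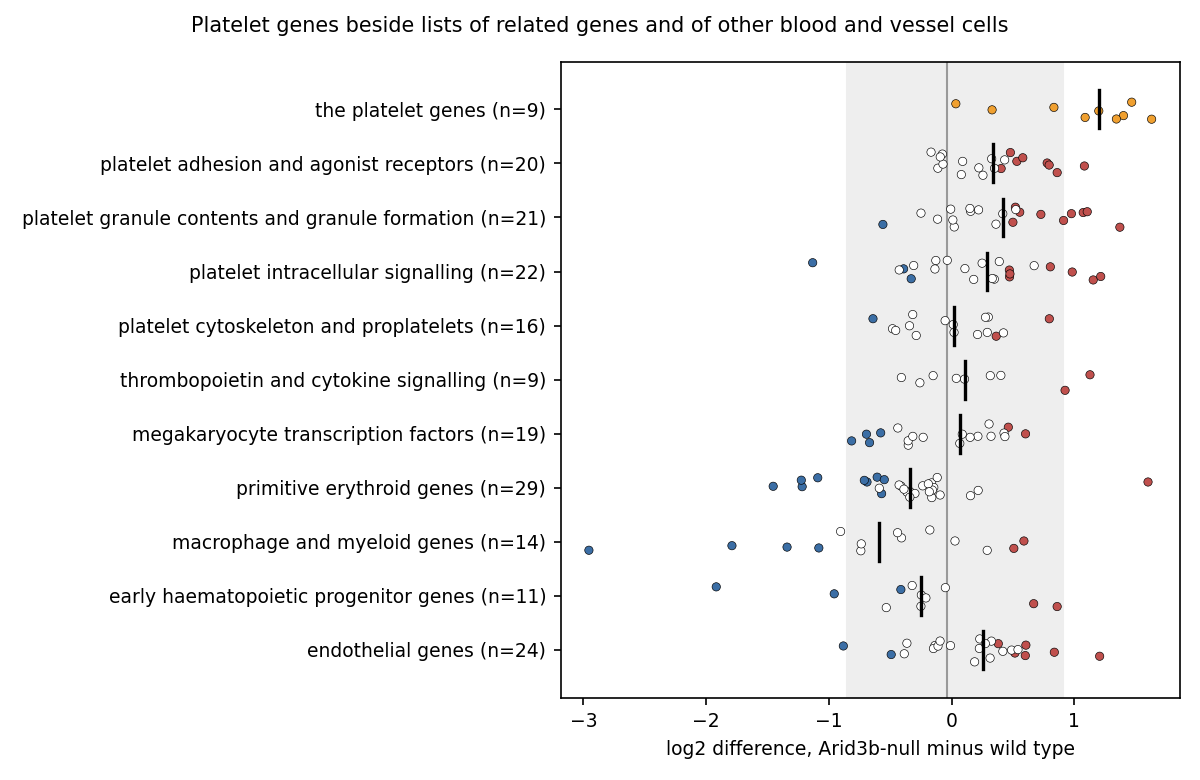
Log2 difference, Arid3b-null minus wild type, of each tested gene by list; red points are higher and blue points lower by limma (Benjamini-Hochberg adjusted p under 0.05), white points did not pass, and the 9 platelet genes are in orange with no test. Black lines are medians (1.20 for the 9 genes, -0.34 for erythroid and -0.59 for macrophage and myeloid genes), and the grey band spans the 5th to 95th percentile of all genes, -0.85 to 0.90.

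The genes whose profile over the 6 arrays lay nearest to the mean of the 9 were Klhl24, Dmac2l, F3, Aga and Rasa4. Likeness was the root mean square difference in log2 after each gene was centred on its mean, and it ran from 0.0648 for Klhl24 to 0.0817 for Rasa4. The 9 genes themselves lay at 0.118 (Gp9) to 0.507 (Clec1b) from their mean. F3, which encodes tissue factor, read -2.30, -2.40 and -2.32 in wild type and -1.41, -1.05 and -1.40 in Arid3b-null. The measure takes in the difference between the groups, so the differences of these 5 genes, 0.94 to 1.14, follow from it.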

How the data were processed

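The 9 genes and the gene lists were chosen with earlier results of these data known. Per the file headers, spots were read with Agilent Feature Extraction 10.7.3.1 on a design annotated to mm9. The deposited scanner files hold linear intensity values, a processed signal already background-subtracted and median signals of spot and local background. The deposited value table holds log2 values of unstated normalization, with a median of 6.77 on each array and a correlation of 0.999 to 1.00 with the log2 processed signal across probes.

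Spots flagged as outliers (100 to 169 per array) were dropped, spots of 1 probe averaged, and each array's 75th percentile over its non-control spots subtracted from the log2 processed signal. RefSeq accessions gave 26424 of 39429 probes 1 symbol and the other 13005 none. The 24421 probes well above background throughout a group were tested, with the brightest standing for its gene. Of the 19794 genes counted as tested, 14210 had a symbol. The others are array identifiers without one, each counted as a gene in the shares of all genes. limma 3.58.1 in R 4.3.3 gave every adjusted p (Benjamini-Hochberg over 19794 genes). The fit was run on simulated data with arrays drawn independently, which cannot show how it behaves when arrays of 1 slide deviate together. Only 3 arrays per group limit the precision.

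Replicate numbers mark slides, per the file headers, so the replicate block is the slide; same-numbered arrays deviated together from their group means (correlations 0.16, 0.39 and 0.28). The genes named by rule were Arid3b, Septin5, 9 central megakaryocyte genes, at most 4 called genes per list by adjusted p (the 2 brightest if none), and the 5 nearest profiles. Fcer1g, Pdpn, Cxcl5, Treml4, Mmrn1, Apbb1ip, Syk, Inpp5d, Prtn3, Aif1, Hba-x, Hbb-bh1, Pecam1 and Cdh5 were named after their values were seen. Some genes that the rule names are not reported here. Alternatives varied background correction, scaling, filter, probe rule, value table and block, and left out each array.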

Additional observations from a re-analysis of the deposited data

How the results depend on the processing

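The 7 genes with separate groups kept a positive difference under 16 of 17 settings. The exception was normexp on each spot's local background, which moved the median of all genes by -0.18. There Pf4 (1.54) and Treml1 (0.60) stayed positive, while Itga2b was -0.14, Ppbp -0.10, Gp9 -0.18, Gp6 -0.57 and Gp1ba -0.40, and the median of the 9 was -0.14. Gp5 was -0.66, Hps1 -0.10, Fermt3 -0.28, Sptb -0.75, Hlf -0.19, Dmac2l -0.034 and Aga -0.053. limma called 2 genes higher and 0 lower there (1018 and 887 at an unadjusted p under 0.05), and 0 and 0 in the 6 partner lists (14 and 2 unadjusted). Wild type replicates 2 and 3 have 3 and 9 spots more than 10 units below local background. Without these 12 spots, a setting chosen after seeing the data, 2309 genes were higher and 2169 lower and the median of the 9 was 0.53. With 1 background value per array that median was 0.54, or 0.51 after quantile normalization.

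With no filter on dim probes 1288 genes were higher and 998 lower of 32530, and 13 and 2 in the partner lists. Leaving out each array gave 1661 to 2047 genes higher and 1203 to 2040 lower, 16 to 24 and 4 to 7 in the partner lists, and a median of 1.05 to 1.38 for the 9. With the replicate block 2428 genes were higher and 2348 lower, 24 and 8 in the partner lists, and the median of the 9 was 1.20. The block ended the calls of Fga (0.0573), Flna (0.0641), Lhx2 (0.0536), Syk (0.0539), Inpp5d (0.0836), Prtn3 (0.0820) and Aif1 (0.0629), and changed no other call of a gene reported by name. Dim signal limits the folds of Itga2b, Ppbp, Gp9, Gp6, Gp1ba and Gp1bb.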
